A study of Homo sapiens with 4 samples.

Results

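The cluster of miR-371 to miR-373 is a group of microRNA (miRNA) genes on human chromosome 19, and its products were examined in spheres and parental cells of HCT15 and HT29, both established human colorectal adenocarcinoma lines. The 5 members are the cluster's names in the files, hsa-miR-371a-5p and hsa-miR-371a-3p, hsa-miR-372, and hsa-miR-373-3p and hsa-miR-373-5p, written below without the species prefix. All 5 were listed in each of the 4 files, among 2080 miRNA names in any file and 1882 in all of them. HCT15 spheres and HT29 spheres were grown in a DMEM-F12 sphere medium that held the growth factors bFGF and EGF at 10 ng/ml each and an N2 Plus supplement, and the submitters call them sphere-derived cancer stem cells. HCT15 parental cells were grown in RPMI and HT29 parental cells in DMEM, both with 10% FBS. All cultures received penicillin and streptomycin, and no genetic change was labelled in any group. Small RNA was sequenced from 1 library per line and culture, so no group had a replicate.

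The hairpins of this cluster are cut from a common primary transcript, and each hairpin can yield a mature miRNA from its 5′ arm (5p) and from its 3′ arm (3p). The cluster is best known from human embryonic stem cells and germ cell tumours, and it is normally silent in most adult tissues. A miRNA recognises messenger RNAs mainly through its seed, bases 2 to 8 from the 5′ end. miR-372 and miR-373-3p carry the same seed as the miR-302 family of pluripotent cells, and both are known to repress the kinase LATS2 in testicular germ cell tumour cells. miR-371a-3p is measured in serum as a marker of germ cell tumours.

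The mature sequences below show how the members fall into seed groups, with the seed in capitals. Sequences are from RefSeq on GRCh38.p14, and miR-372, listed without an arm in the files, was matched to miR-372-3p. The last sequences are shown for comparison: miR-302d-3p has the same seed as miR-372, and in miR-93-5p, of the miR-17 family, the shared bases begin 1 position later.
miR-371a-5p: aCUCAAACugugggggcacu
miR-373-5p: aCUCAAAAugggggcgcuuucc
miR-371a-3p: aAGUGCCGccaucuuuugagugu
miR-372: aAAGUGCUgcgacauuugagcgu
miR-373-3p: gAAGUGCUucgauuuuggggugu
miR-302d-3p: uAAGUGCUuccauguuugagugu
miR-93-5p: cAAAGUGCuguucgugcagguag

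miR-372 and miR-373-3p had identical seeds but were 7 edits apart over their full length of 23 nt. The member closest to any other human miRNA was at 5 edits: miR-373-3p from miR-302d-3p, and miR-371a-3p from miR-302d-3p, miR-371b-3p and miR-519e-3p. miR-372, miR-371a-5p and miR-373-5p were each 6 edits from their nearest other miRNA. The 2 5p members share the first 6 seed bases, but miR-371a-5p has a seed found under no other name in the files.

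The hairpins are shown with both mature arms in capitals, because the arms were read at very unequal levels.
MIR371A: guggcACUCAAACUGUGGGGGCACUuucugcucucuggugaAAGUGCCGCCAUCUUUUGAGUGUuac
MIR372: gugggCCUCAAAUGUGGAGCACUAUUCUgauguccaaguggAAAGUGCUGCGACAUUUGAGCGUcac
MIR373: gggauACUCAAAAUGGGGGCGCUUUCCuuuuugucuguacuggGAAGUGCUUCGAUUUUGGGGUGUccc

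On GRCh38.p14 the hairpins lie on the plus strand at chr19:53787675-53787741 (MIR371A), chr19:53787890-53787956 (MIR372) and chr19:53788705-53788773 (MIR373), and GENCODE 29 gives the same positions. They span 1099 bases, with 148 bases between MIR371A and MIR372 and 748 between MIR372 and MIR373. GENCODE 29 places MIR371A and MIR372 opposite an exon of a lincRNA transcribed from the minus strand, and it lists no overlapping gene for MIR373. MIR371B, a hairpin on the minus strand, overlaps MIR371A. Reads of its arms were nearly absent, with miR-371b-5p at 1 read in HCT15 parental cells and 1 in HT29 spheres and miR-371b-3p listed at 0 in all 4 libraries. The last hairpin of the placental cluster C19MC ends 25244 bases before MIR371A.

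The files listed 2325417 reads in HCT15 spheres, 3189981 in HCT15 parental cells, 12794274 in HT29 spheres and 5806540 in HT29 parental cells. The HT29 reads were deposited as counts, whereas the HCT15 reads are approximate, since they were inferred from values deposited as RPKM. Levels below are in CPM, in which a miRNA's reads are scaled to the same total of listed miRNA reads in every library. A count of 0 allows up to 3 reads, or 1.29, 0.940, 0.234 and 0.517 CPM in these libraries in the same order. All 6 epithelial miRNAs checked were read in every library. They summed to 14757 and 17166 CPM in HCT15 spheres and parental cells and to 214179 and 141900 CPM in HT29 spheres and parental cells. miR-192-5p made up most of the HT29 sum, at 157860 CPM in spheres and 92120 CPM in parental cells. Of the 6, miR-375 alone was higher in HCT15, at 7538 and 10451 CPM in spheres and parental cells against 2424 and 896 CPM in those of HT29. The 4 blood-cell miRNAs summed to 36.6 and 45.2 CPM in HCT15 spheres and parental cells and to 370 and 386 CPM in those of HT29, with miR-223-3p at 0 throughout. miR-142-3p made up nearly all of the HT29 sum, at 366.8 CPM in spheres and 381 CPM in parental cells, and miR-486-5p nearly all of the HCT15 sum, at 34.8 CPM in spheres and 42.9 CPM in parental cells. The 3 stromal miRNAs summed to between 6.72 and 20.4 CPM, and miR-145-5p had 1 read in HT29 parental cells and 0 elsewhere. The endothelial miR-126-3p was between 8.60 and 147 CPM.

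The cluster was among the most abundant miRNA sources in HCT15 and scarce in HT29. In HCT15 it gave 8.25% of listed reads in spheres and 12.8% in parental cells, against 0.0159% in HT29 spheres and 0.00596% in HT29 parental cells. After TMM scaling, which sets libraries on a common scale through the bulk of shared miRNAs, the summed cluster was 537-fold higher in HCT15 than in HT29 spheres, and 2599-fold higher in HCT15 than in HT29 parental cells. The 95% intervals of these ratios ran from 515 to 562 and from 2358 to 2919. These and all intervals below cover counting error only, and reads carry no molecular identifiers.

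miR-371a-5p, the 5′ arm of the first hairpin, was the most abundant member in HCT15, at 36994 CPM in spheres and 63271 CPM in parental cells. In HT29 it was at 57.0 CPM in spheres and 20.5 CPM in parental cells. It ranked 8th in HCT15 spheres and 4th in HCT15 parental cells among all names, but 200th in HT29 spheres and 305th in HT29 parental cells. miR-373-3p, the main product of MIR373, was at 23606 and 34874 CPM in HCT15 spheres and parental cells and at 62.3 and 14.5 CPM in HT29 spheres and parental cells. It ranked 10th in both HCT15 libraries. miR-372, from the middle hairpin, was at 20657 and 27392 CPM in HCT15 spheres and parental cells, and at 39.4 and 22.7 CPM in those of HT29. miR-371a-5p stood at most 2.31-fold above miR-372 in HCT15, and the counting intervals of these 3 members did not overlap in either HCT15 library. In HT29 spheres the intervals of miR-373-3p (58.0 to 66.8 CPM) and miR-371a-5p (52.9 to 61.3 CPM) overlapped, and that of miR-372 (36.0 to 43.0 CPM) lay below both. In HT29 parental cells those of miR-371a-5p (16.98 to 24.5 CPM) overlapped both miR-372 (19.02 to 26.96 CPM) and miR-373-3p (11.5 to 17.9 CPM).

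The minor arms were far lower. miR-371a-3p was at 1263 CPM in HCT15 spheres and 2547 CPM in HCT15 parental cells, against 0.391 CPM (5 reads) in HT29 spheres and 1.55 CPM (9 reads) in HT29 parental cells. miR-373-5p was the scarcest member in every library. It was at 18.5 CPM (about 43 reads) in HCT15 spheres and 34.8 CPM (about 111 reads) in HCT15 parental cells, against 0.313 CPM (4 reads) in HT29 spheres and 0.344 CPM (2 reads) in HT29 parental cells. Every member was higher in both HCT15 libraries than in either HT29 library.

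**Figure D1:**
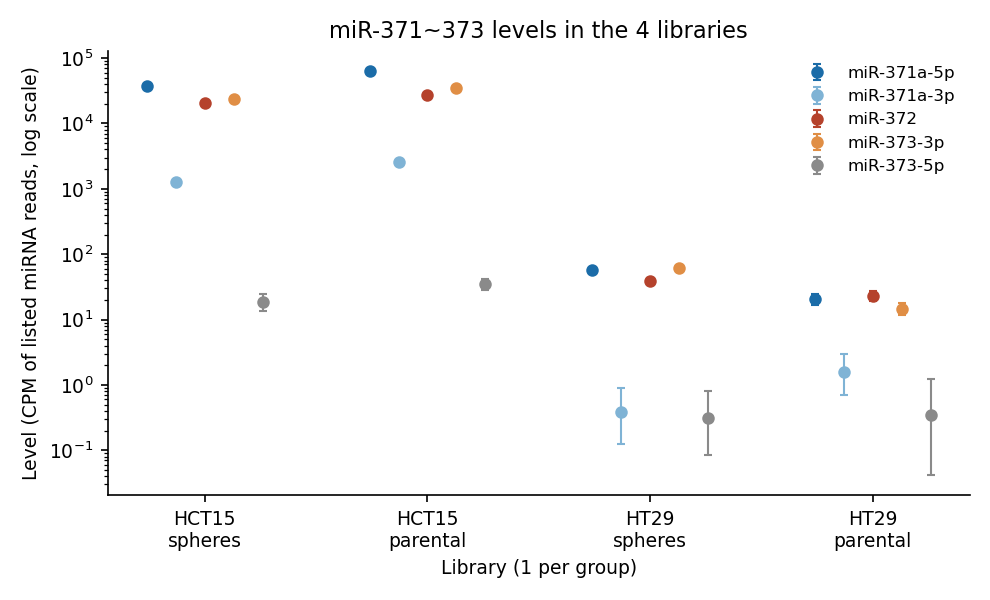
Level of each cluster member in CPM on a log scale, in 1 library per group; bars are exact 95% binomial intervals for counting error. The HCT15 libraries hold the 3 abundant members at 20657 CPM or more, and the HT29 libraries hold them at 62.3 CPM or less.

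Member by member, the parental libraries differed by log2 ratios (HCT15 over HT29, TMM-scaled) of 11.84 for miR-371a-5p (interval 11.62 to 12.15), 11.47 for miR-373-3p (11.21 to 11.85), 10.58 for miR-371a-3p (10.04 to 12.10), 10.49 for miR-372 (10.27 to 10.78) and 5.71 for miR-373-5p (5.06 to 10.01). Over the 389 miRNAs averaging 10 CPM or more in the parental libraries, the first 4 of these were the 4 highest ratios. In spheres the ratios were 10.96 for miR-371a-3p, 9.39 for miR-371a-5p, 9.08 for miR-372, 8.61 for miR-373-3p and 5.07 for miR-373-5p. Of 341 miRNAs, miR-371a-3p ranked 1st, then miR-371a-5p, miR-372 at rank 3 and miR-373-3p at rank 6, and miR-373-5p was under the 10 CPM minimum. Ratios for miR-373-5p, which rest on 4 HT29 reads in spheres and 2 in parental cells, depend on the prior count of 2 reads used here. So do those of miR-371a-3p, on 5 HT29 reads in spheres and 9 in parental cells: with a prior count of 10 its log2 ratio was 9.58 in spheres and 9.63 in parental cells. By CPM alone miR-373-5p was 101-fold higher in HCT15 than in HT29 parental cells, with an interval of 27.3 to 845.

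At least 100-fold higher in HCT15 were 4 of 5 members in parental cells, where 3.60% of all 389 miRNAs were, and 4 of 4 in spheres, where 4.11% of all 341 were. None was at least 100-fold lower, against 4.37% of all in parental cells and 5.28% in spheres. The median log2 ratio of all miRNAs was -0.43 in parental cells and -0.08 in spheres. miR-371a-3p and miR-373-5p reached the minimum only through HCT15. The lines' files were normalized separately and in different units, and the parental media differed too, so line, medium and processing cannot be told apart and no test was made between the lines.

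**Figure D2:**
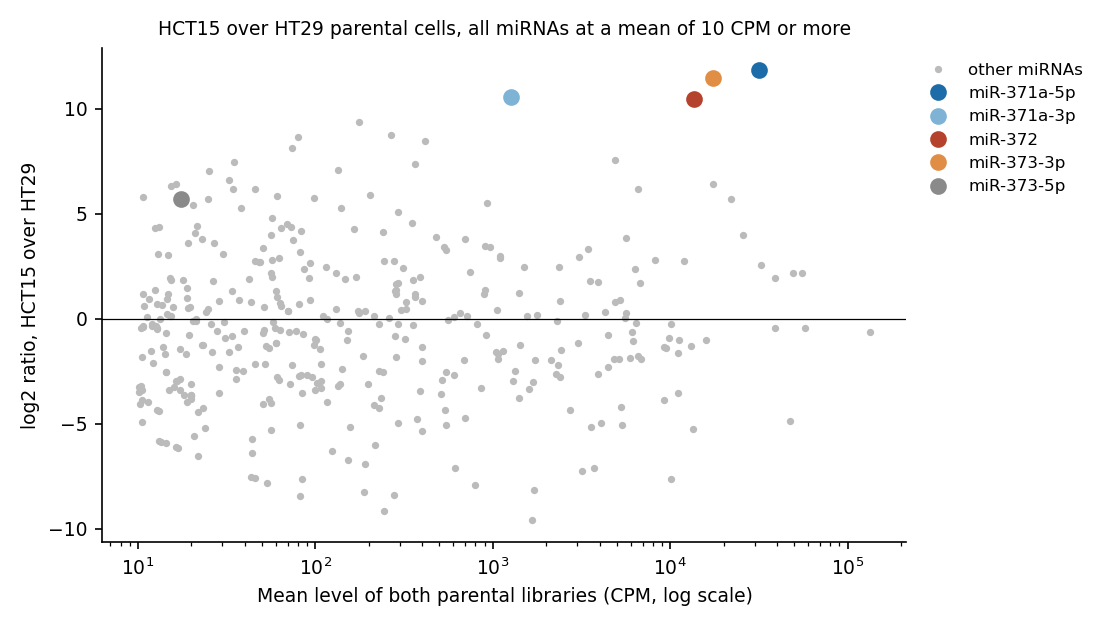
Log2 ratio of HCT15 over HT29 parental cells against the mean level of both libraries (log scale), for the 389 miRNAs averaging 10 CPM or more; 1 point per miRNA, cluster members in colour. Of the members, 4 sit above all other miRNAs, at 10.49 to 11.84, and miR-373-5p lies at 5.71.

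The miRNAs whose levels over the 4 libraries were most like the cluster's were miR-125b-1-3p, miR-449b-5p, miR-671-3p, miR-100-3p and miR-92b-3p. Likeness was the root-mean-square distance, over the 4 libraries, of centred log2(CPM + 1) values from the mean profile of the 3 abundant members, taken over 454 other miRNAs. The distances of the 5 named ran from 1.09 to 1.63, beside 0.82 for miR-371a-3p and 2.87 for miR-373-5p. The 3 abundant members lay at 0.23 to 0.30, which is low by construction, since they define the profile. The nearest, miR-125b-1-3p, was at 289 and 355 CPM in HCT15 spheres and parental cells and at 0.547 and 0.172 CPM in those of HT29. All 5 were far higher in both HCT15 libraries than in either HT29 library, which follows from their choice by likeness to this profile.

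In HT29, the 3 abundant members were higher in spheres than in parental cells. miR-373-3p had 797 reads in HT29 spheres and 84 in HT29 parental cells, a log2 ratio of 2.67 (interval 2.36 to 3.03) after TMM scaling. miR-371a-5p had 729 and 119 reads in HT29 spheres and parental cells, a log2 ratio of 2.04 (1.78 to 2.35). miR-372 had 504 and 132 reads, a 2.58-fold ratio (2.14 to 3.17), or 1.37 on the log2 scale. The ratio of the summed cluster was 3.99-fold (3.57 to 4.50). The size of these ratios depended on the scaling. Scaled to total listed reads, the log2 ratios were 2.09 for miR-373-3p, 1.47 for miR-371a-5p and 0.79 for miR-372, so that the summed cluster was 2.67-fold higher and miR-372 was no longer at least 2-fold higher. The minor arms had too few reads for a TMM-scaled direction. miR-371a-3p had 5 reads in HT29 spheres and 9 in HT29 parental cells (interval -3.33 to 0.33, but -3.91 to -0.26 when scaled to total reads). miR-373-5p had 4 reads in HT29 spheres and 2 in HT29 parental cells (interval -2.36 to 3.91).

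Averaged over the HT29 libraries, 3 members reached 10 CPM, and all 3 were at least 2-fold higher in spheres, as were 12.5% of all 351 miRNAs. None of them was at least 2-fold lower, and 18.5% of all were. Their median log2 ratio was 2.04, beside -0.06 over all 351. By ratio they ranked 6th (miR-373-3p), 13th (miR-371a-5p) and 25th (miR-372). miR-192-5p, miR-215, miR-375 and miR-141-3p of the 6 epithelial miRNAs were also at least 2-fold higher in HT29 spheres after TMM scaling. Scaled to total listed reads, miR-192-5p (log2 ratio 0.78) and miR-141-3p (0.52) were not. In HT29 miR-1, a muscle miRNA, was at 1156 CPM in spheres and 165 CPM in parental cells. The other muscle miRNA checked, miR-133a, was at only 2.74 CPM in HT29 spheres and 0.689 CPM in HT29 parental cells. HT29 spheres were also the deeper library. The part of these differences in the cluster's ratios was not tested. In these bulk libraries a change in the number of expressing cells cannot be told apart from a change in RNA per cell.

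In HCT15, the same members were level or lower in spheres. The TMM-scaled log2 ratio, spheres over parental cells, was -0.42 for miR-371a-5p (interval -0.43 to -0.41), -0.21 for miR-373-3p (-0.23 to -0.20) and -0.05 for miR-372 (-0.07 to -0.04). The minor arms had -0.66 for miR-371a-3p (-0.72 to -0.60) and -0.54 for miR-373-5p (-1.10 to -0.04). The summed cluster was at 0.822 of its parental level. These intervals are narrow because reads were many. Other scalings moved the ratios further than counting error did. Over 6 scalings miR-371a-5p ranged from -0.77 to -0.22, miR-371a-3p from -1.01 to -0.46, miR-373-3p from -0.56 to -0.01 and miR-372 from -0.41 to 0.15, so miR-372 had no fixed direction. In HCT15, 0 of 5 members were at least 2-fold higher in spheres, where 8.95% of all 324 miRNAs were, and 0 of 5 were at least 2-fold lower, where 5.86% were. Scaled to total listed reads, miR-371a-3p was at least 2-fold lower, at -1.01. The median log2 ratio was -0.42 for the members and 0.05 for all 324.

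**Figure D3:**
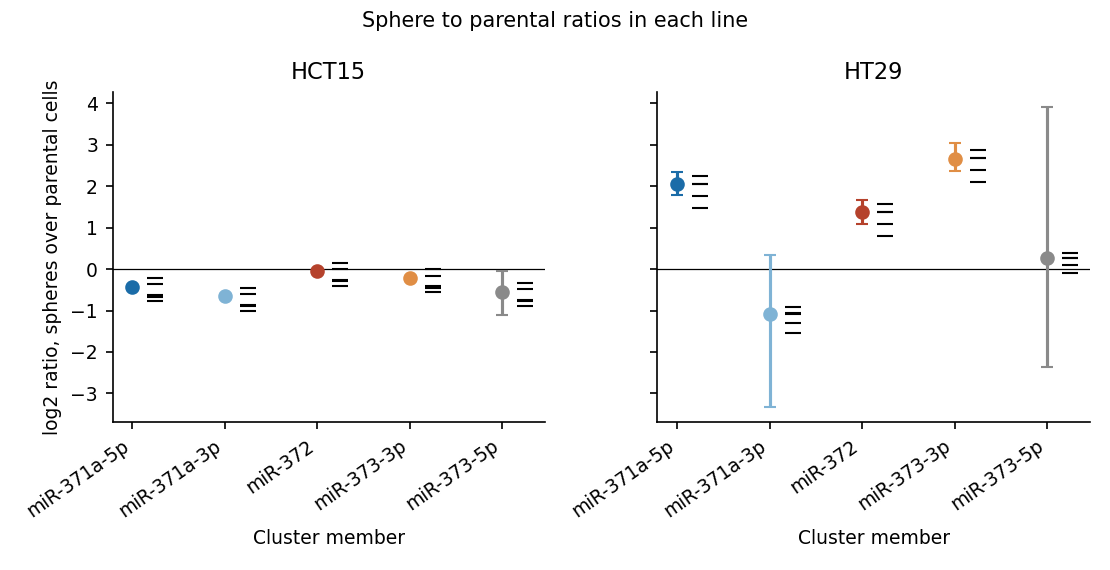
Log2 ratio of spheres over parental cells for each member in HCT15 and HT29; points with bars are TMM-scaled ratios with exact 95% intervals for counting error, and black ticks give the other 5 scalings. In HT29 the 3 abundant members lie at 1.37 to 2.67, and in HCT15 all 5 members lie between -0.66 and -0.05.

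Across the lines no member passed the test. limma was fitted to the 377 miRNAs that reached 10 CPM in 2 or more libraries, with cell line as a block and the lines as replicates. At a Benjamini-Hochberg adjusted p under 0.05 it called 0 of 5 members and 0% of all 377. The limma log2 fold changes, spheres over parental cells, were 1.19 for miR-373-3p (SE 0.81, adjusted p = 0.760), 0.78 for miR-371a-5p (SE 0.72, adjusted p = 0.774), 0.64 for miR-372 (SE 0.52, adjusted p = 0.760), -0.22 for miR-373-5p (SE 0.36, adjusted p = 0.876) and -0.63 for miR-371a-3p (SE 0.40, adjusted p = 0.760). The 3 abundant members had SEs of 0.52 to 0.81. Their TMM-scaled ratios differed in sign between the lines, which for miR-372 depended on the scaling. In this fit no member had an unadjusted limma p under 0.05, and 21 of all 377 miRNAs did. edgeR's quasi-likelihood test on the approximate reads also called 0 members and 0 of all, with 21 at an unadjusted p under 0.05 and a smallest unadjusted p of 0.145 among the members. In limma with no filter on level, the smallest unadjusted p among the members was 0.0103, and 87 of 1234 miRNAs were under 0.05. That fit called 0 members after adjustment.

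Ratios between members of the same library need no scaling, and in HT29 they differed between the cultures. In HT29 spheres there were 1.58 reads of miR-373-3p per read of miR-372 (interval 1.41 to 1.77), against 0.636 in HT29 parental cells (0.478 to 0.843). This is a 2.48-fold shift, with an interval of 1.85 to 3.34. miR-371a-5p shifted 1.60-fold against miR-372 (1.22 to 2.11) and 0.646-fold against miR-373-3p (0.480 to 0.869). In HCT15 the shifts were smaller: 0.898-fold for miR-373-3p against miR-372, 0.775-fold for miR-371a-5p against miR-372 and 0.864-fold for miR-371a-5p against miR-373-3p. The counting intervals of all 6 shifts excluded 1, and with 1 library per culture none has a replicate check.

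As shares of the cluster's reads, miR-371a-5p made up 44.8% in HCT15 spheres and 49.4% in HCT15 parental cells, and 35.8% (interval 33.7 to 37.9) and 34.4% (29.4 to 39.7) in those of HT29. miR-372 made up 25.03% and 21.4% in HCT15 spheres and parental cells, and 24.7% (interval 22.9 to 26.7) and 38.2% (33.0 to 43.5) in those of HT29. miR-373-3p made up 28.6% and 27.2% in HCT15 spheres and parental cells, and 39.1% (37.0 to 41.2) and 24.3% (19.9 to 29.1) in those of HT29. The HCT15 libraries thus differed from each other by at most a few percentage points in each member, whereas in HT29 the share of miR-373-3p was higher, and that of miR-372 lower, in spheres than in parental cells. The largest HT29 share, miR-373-3p in spheres and miR-372 in parental cells, was within counting error of that of miR-371a-5p.

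**Figure D4:**
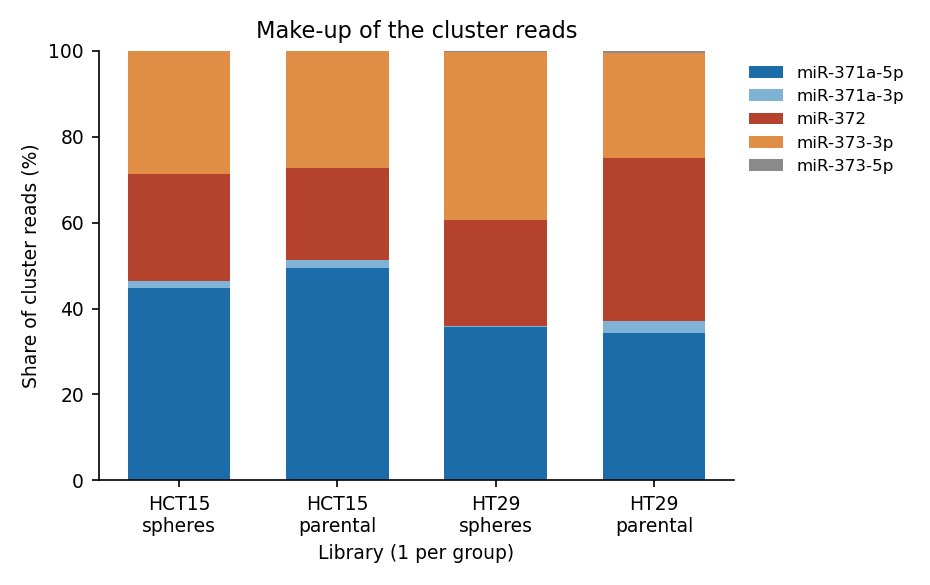
Share of the cluster's reads (percent) held by each member in each library, 1 library per group. miR-371a-5p holds the largest share in both HCT15 libraries; in HT29 its share is within counting error of the largest, which is that of miR-373-3p in spheres and of miR-372 in parental cells.

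Each hairpin was read mostly from one arm. For MIR371A the 5p arm led: it held 96.7% of the reads of both arms in HCT15 spheres (interval 96.6 to 96.8) and 96.1% in HCT15 parental cells (96.0 to 96.2), a ratio of 29.3 and 24.8 reads of miR-371a-5p per read of miR-371a-3p. In HT29 it held 99.3% in spheres (98.4 to 99.8) and 93.0% in parental cells (87.1 to 96.7). The 5p to 3p ratio was 1.18-fold higher in HCT15 spheres than in HCT15 parental cells (1.13 to 1.23), and 11.0-fold higher in HT29 spheres than in HT29 parental cells (3.24 to 42.4). The HT29 shift rests on 5 and 9 reads of the 3p arm. Among hairpins whose arms held 100 or more reads in each library, arm ratios moved by 2-fold or more between cultures for 25.7% of 113 in HCT15 and 37.3% of 158 in HT29. By size of this shift MIR371A ranked 86th in HCT15 and 3rd in HT29.

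For MIR373 the 3p arm led almost exclusively. miR-373-3p held 99.92% of the reads of both arms in HCT15 spheres and 99.90% in HCT15 parental cells, with about 1277 and 1002 reads per read of miR-373-5p. In HT29 the share was 99.5% in spheres (98.7 to 99.9) and 97.7% in parental cells (91.9 to 99.7). The 3p to 5p ratio in spheres over parental cells had a counting interval that included 1 in both lines, at 0.896 to 1.81 in HCT15 and 0.422 to 33.6 in HT29. The leading arm was thus opposite between MIR371A and MIR373, and it was the same in all 4 libraries for each. For MIR372 the files held a single name, so its arms could not be compared.

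By seed, miR-372 and miR-373-3p accounted for nearly all reads of their group, whereas miR-373-5p did not. The seed of miR-372 and miR-373-3p is shared by 12 names in the files, 10 of them outside the cluster, among them miR-302a-3p to miR-302d-3p and miR-520a-3p. miR-372 and miR-373-3p gave 99.997% and 99.996% of the reads with this seed in HCT15 spheres and parental cells, and 99.8% and 99.1% in those of HT29. The most read of the others, miR-520a-3p, was at 0.860 and 1.57 CPM in HCT15 spheres and parental cells and listed at 0 in both HT29 libraries. The seed of miR-373-5p is shared by miR-371b-5p and miR-616-5p. miR-616-5p was at 5.59 and 23.2 CPM in HCT15 spheres and parental cells and at 1.80 and 7.58 CPM in those of HT29. In HCT15 spheres and parental cells miR-373-5p gave 18.5 of 24.1 CPM and 34.8 of 58.3 CPM with this seed. In HT29 spheres and parental cells it gave 0.313 of 2.19 CPM and 0.344 of 7.92 CPM.

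Of the cluster of miR-302 and miR-367, the other well-known miRNA cluster of human embryonic stem cells, 10 names were listed and none had a read in either HCT15 library. In HT29 they had 0.313 CPM in all in spheres and 0.172 CPM in parental cells. The products of miR-371 to miR-373 were thus read in HCT15 where no miR-302 or miR-367 was detectable at this depth. Of the neighbouring C19MC, 58 names were listed in all files. Their sum was 259 CPM in HCT15 spheres and 174 CPM in HCT15 parental cells, and 6.10 and 2.58 CPM in those of HT29. miR-516a-5p led at 100.2 and 64.8 CPM in HCT15 spheres and parental cells, and at 1.80 and 0.344 CPM in those of HT29. C19MC thus lay far below the cluster of miR-371 to miR-373 in HCT15.

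The seed shifted by 1 base belongs to the miR-17 family, whose members from the miR-17~92 cluster and its paralogs are common in proliferating cells. The 16 related names compared here, outside the cluster and its seed group, hold the first 6 bases of the miR-372 seed near the 5′ end. The shift is not by 1 base in all of them: in miR-371b-3p, which had no reads, these bases begin 1 position earlier than in miR-372. Some others belong to C19MC, among them miR-512-3p and miR-519a-3p. The 16 names summed to 4110 CPM in HCT15 spheres and 4086 CPM in HCT15 parental cells, and to 21177 and 38213 CPM in those of HT29. miR-93-5p, of the miR-17 family, led in each library. The seed of miR-372 and miR-373-3p summed to 44265 and 62269 CPM in HCT15 spheres and parental cells and to 102 and 37.5 CPM in those of HT29. In HCT15 the embryonic seed was thus 10.8-fold above the related names in spheres and 15.2-fold in parental cells. In HT29 the related names were 208-fold above the embryonic seed in spheres and 1018-fold in parental cells. After TMM scaling, between HT29 cultures none of the 6 related names averaging 10 CPM passed 2-fold in either direction (median log2 ratio -0.44), beside 2 of 2 higher in spheres for the embryonic seed. Scaled to total listed reads, miR-106b-5p (-1.44), miR-17-5p (-1.20) and miR-106a-5p (-1.07) were over 2-fold lower in HT29 spheres, and 1 of the 2 names of the embryonic seed, miR-373-3p, was over 2-fold higher. Between HCT15 cultures 6 related names also averaged 10 CPM, with miR-512-3p of C19MC in place of miR-20b-5p of the miR-17 family. After TMM scaling, 1 of these 6 was over 2-fold higher in HCT15 spheres, miR-512-3p, and none of the miR-17 family was. 0 were lower to that degree (median 0.36).

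**Figure D5:**
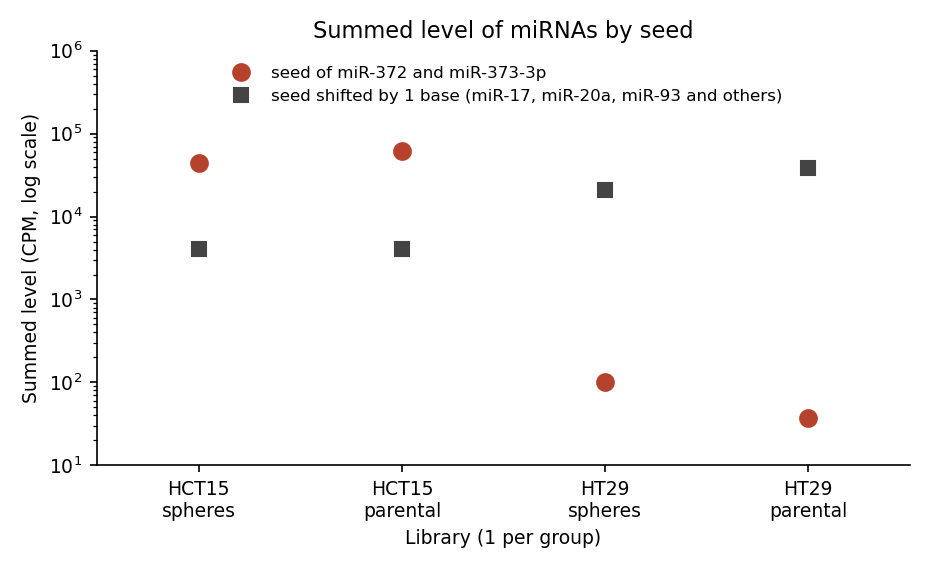
Summed level in CPM (log scale) of the 12 names with the seed of miR-372 and miR-373-3p (circles) and the 16 related names (squares), in 1 library per group. The related names hold the first bases of that seed near the 5′ end, shifted by 1 position in the miR-17 family but not in every name. The circles lie above the squares in both HCT15 libraries and below them in both HT29 libraries.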

How the data were processed

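Total RNA (1 ug) went into TruSeq Small RNA libraries, per the labels' protocols. For HT29 the authors deposited read counts per mature miRNA, and for HCT15 they deposited RPKM, per the file headers. The submitters' processing notes name hg19, whereas positions given here come from GRCh38 tables and none was converted. No source used here gives the aligner or how reads matching several miRNAs were shared out.

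The RPKM sums (612602 in HCT15 spheres, 516401 in HCT15 parental cells) and steps behave like reads scaled to a fixed total larger than the listed one. One read was worth 0.263 and 0.162 for a 22 nt miRNA in these libraries. In HCT15 parental cells it ranged from 0.157 at 20 nt to 0.164 at 23 nt. In spheres the commonest low value was taken as 2 reads. Within 0.02 reads, 55.3% and 63.4% of values below 20 reads were whole with a step for each length, so inferred reads are approximate.

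Ratios used TMM scaling over the 1882 shared names (edgeR 4.0.16), a prior count of 2 and exact conditional binomial 95% intervals. Shares have Clopper-Pearson intervals. Changes of a ratio between members used a normal approximation, or an exact conditional interval for small counts. limma 3.58.1 in R 4.3.3 was run on log2(TMM-scaled CPM + 1) with a variance trend and cell line as a block (1 residual degree of freedom). P-values weigh a miRNA's spread between the lines together with the variance trend over all 377 miRNAs, which adds 2.89 prior degrees of freedom. Nothing says cultures were repeated. edgeR, DESeq2 1.42.0, voom, other scalings, filters and pseudocounts were alternatives. Members, lists and naming rules (all members, names sharing their seeds, the 5 nearest profiles, up to 3 names per list) were chosen with earlier results of these data known. From the list of miR-512 to miR-527, the names of miR-513 and miR-514, which are not of chromosome 19, were left out after the files were seen. Arm shares and scripts used Python 3.11.15 with scipy 1.17.1.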

Additional observations from a re-analysis of the deposited data

Results flagged for a closer look

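The TMM-scaled sphere to parental ratios of 3 members ran in opposite directions in the 2 lines, with counting intervals that exclude 0 in each. The HT29 log2 ratio minus the HCT15 log2 ratio was 2.88 for miR-373-3p, 2.47 for miR-371a-5p and 1.42 for miR-372. These differences ranked 3rd, 4th and 22nd from the highest over the 252 miRNAs averaging 10 CPM or more within each line, whose median difference was -0.12. With 1 library per line and culture the difference was not tested, and the HCT15 direction of miR-372 turned with DESeq2 size factors. With the same factors the HCT15 log2 ratio of miR-373-3p was only -0.007, so its direction in HCT15 is not firm either.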

How the results depend on the processing

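The summed cluster kept its direction in every comparison and setting run. Its HT29 log2 ratio, spheres over parental cells, was 1.997 with TMM, 1.42 with total listed values, 1.72 without the 10 most abundant names and 2.20 with TMM on filtered names. In HCT15 it was -0.28 with TMM, -0.63 with total listed values, -0.079 with DESeq2 size factors, -0.49 with the upper quartile, -0.52 without the 10 most abundant names, -0.23 with TMM on filtered names and -0.16 without miR-371a-5p. For HCT15 over HT29 spheres it was 9.07 with TMM, 9.14 with the upper quartile, 9.33 with TMM on filtered names and 8.85 without miR-371a-5p. For HCT15 over HT29 parental cells it was 11.34 with TMM, 11.06 with total listed values, 11.15 with DESeq2 size factors, 11.63 with the upper quartile, 11.75 with TMM on filtered names and 10.96 without miR-371a-5p. Single members reversed in 2 cases: miR-372 in HCT15 to 0.15 with DESeq2 size factors, and miR-373-5p in HT29 to -0.084 with total listed values, where it rests on 4 and 2 reads.

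The miR-371a arm share in HCT15 spheres was 96.2% with values multiplied by length and 96.8% with the value of 1 read set by length, an alternative chosen after seeing the data. In HCT15 parental cells it was 95.6% and 96.3%. The count of members called across lines was 0 in all 11 other fits, with adjusted p from 0.431 to 0.99998. Over all miRNAs those fits called 2 with DESeq2 size factors, 7 with no filter, 5 with DESeq2 and 3 with limma-voom, and 0 in the other 7. The main fit pairs the libraries by cell line, and without that block it also called 0 members. The labels give no replicate numbers to pair by. Leaving out a line leaves no residual degrees of freedom, so the remaining value is the other line's ratio. Low read numbers limit the HT29 minor arms, at 2 to 9 reads each.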
